A study of Mus musculus with 22 samples.

Results

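Cathepsins, the proteases of the lysosome, and the proton pump that acidifies it were followed across 6 groups of mouse myeloid and tumor RNA libraries with and without VISTA, an inhibitory checkpoint protein encoded by Vsir. The members are 40 of the 35255 genes listed in the 3 count tables. They were taken by a rule on symbols that was set with earlier results of these data known, although no measured value enters it. The rule takes 14 genes named Cts plus 1 letter, leaving out Ctse and Ctsg, and 26 genes whose symbols start with Atp6v or Atp6ap. One of the 26, Atp6v1fnb, is named as a neighbour of Atp6v1f. The symbol rule leaves out Tcirg1, which encodes a membrane subunit of the same pump, and its values are given apart.

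All 22 libraries came from mice with the strain background C57BL/6N, either VISTA knockout (KO) or wild type (WT). MC38 tumor samples labelled day 7 gave 3 KO and 3 WT libraries; MC38 is a mouse colon carcinoma line. Bone marrow myeloid cells held in hypoxia for 24 hours gave 4 KO and 4 WT libraries. The same kind of cells grown in normoxia until day 4 gave 4 KO and 4 WT libraries, from progenitors cultured with GM-CSF and IL-6, growth factors that drive myeloid suppressor cells. Replicates are stated to be independent for the normoxia cultures only, so elsewhere a p-value measures the spread between libraries, which may be technical. The allele of the knockout, the age of the mice and whether cells were purified from the tumors are not stated in the sources used here. The deposited counts of the tumor samples are named MDSC, for myeloid-derived suppressor cells, as are those of both cultures. Oxygen is confounded with the length of culture and with the count table, so these cannot be told apart.

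Cathepsins are made as inactive precursors, carried to the lysosome on mannose 6-phosphate receptors and switched on there by low pH. In myeloid cells they digest engulfed protein, trim antigens for MHC class II and activate the serine proteases of granules. The vacuolar ATPase provides the acid: its peripheral V1 part hydrolyses ATP, and its membrane part V0 carries protons into the organelle. The transcription factors TFEB, TFE3 and MITF are known to raise genes of both groups through E-box motifs in their promoters.

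Total counts were 19119985 to 23089943 in KO and 27452024 to 31716200 in WT tumor libraries, 30839108 to 31385825 in hypoxia and 23409142 to 23722932 in normoxia libraries. Vsir levels of the genotypes did not overlap in any experiment: the difference in mean log2(CPM + 1) was -1.94 in tumor, -1.90 in hypoxia and -2.03 in normoxia. An exact two-sided permutation test gave p = 0.1, 0.0286 and 0.0286 for these, each the smallest its design allows. Neutrophil markers summed to 37764 to 48515 CPM in KO and 16559 to 21554 CPM in WT hypoxia cultures, and to 30719 to 43691 CPM in KO and 19490 to 26661 CPM in WT normoxia cultures. Macrophage markers summed to 12303 to 16969 CPM in KO and 11517 to 15699 CPM in WT tumor samples. Neutrophil markers, 9 of 10 of which were listed in tumor, summed to 344 to 397 CPM in KO and 272 to 306 CPM in WT tumor samples. The markers of epithelial tumor cells, 5 of 6 of which were listed there, summed to 24.9 to 57.9 CPM in KO and 16.7 to 34.7 CPM in WT tumor samples. Most of that was Cdh1, at 24.7 to 47 CPM in KO and 16 to 33.4 CPM in WT, while Epcam was at most 0.673 CPM and Krt8, Krt18 and Krt19 were at most 5.47 CPM in any tumor library; 2 of the 5 were tested and 0 called. On the first 2 principal components the library farthest from its group mean was replicate 3 in KO and in WT tumor samples, KO replicate 4 and WT replicate 2 in hypoxia, and KO replicate 4 and WT replicate 3 in normoxia. Calls that change when such a pair is left out are named beside the result.

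Most members were well counted and a minority barely so. Of the cathepsins, 12 were listed in the normoxia table, 14 in hypoxia and 12 in tumor, and 10, 11 and 11 passed the filter on low counts. Of the pump genes, 19, 25 and 22 were listed and 18 passed in each experiment. Ctsj and Ctsm, known from the placenta of rodents, averaged at most 0.0662 CPM in any group where they were listed. Atp6ap1l, Atp6v0a4, Atp6v0e2, Atp6v1b1, Atp6v1c2, Atp6v1e2, Atp6v1fnb and Atp6v1g3 averaged at most 0.243 CPM, and most are known as forms of kidney, brain or testis. Of the separate fits, Ctsf passed the filter in hypoxia alone and Ctsw, a protease of cytotoxic lymphocytes, in tumor alone. In GRCm38 the members that the results turn on lie at chr14:63122462-63145923 (Ctsb), chr7:88278085-88310888 (Ctsc), chr7:142375911-142388038 (Ctsd), chr3:95499256-95509362 (Ctsk), chr2:174427493-174439039 (Ctsz), chr4:19876841-19922605 (Atp6v0d2), chr17:35233660-35238767 (Atp6v1g2) and chr15:38661933-38692446 (Atp6v1c1), all annotated as protein-coding genes and counted over their exons.

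Per exon length, the aspartic protease gene Ctsd was the highest cathepsin in all 4 culture groups and the cysteine protease gene Ctss the highest in tumor. Ctsd stood at 279 and 363 CPM per kb in KO and WT tumor samples, 392 and 506 in KO and WT hypoxia cultures, and 583 and 706 in KO and WT normoxia cultures. Ctss, which removes the invariant chain from MHC class II, stood at 4163 and 4129 CPM per kb in KO and WT tumor samples, 217 and 325 in hypoxia and 178 and 183 in normoxia. Tables were scaled separately, so levels set across tumor and cultures are descriptions with no test. The neutrophil marker sums above differ widely between tumor and cultures, and the part of cell types in these levels was not tested. Among pump genes the proteolipid gene Atp6v0c, whose product lines the rotating ring, was the highest in each group, at 306 and 302 CPM per kb in KO and WT tumor samples, 188 and 222 in hypoxia and 201 and 216 in normoxia. The a subunit genes changed places between the sources: Atp6v0a1 was at 11.8 and Atp6v0a2 at 22.3 CPM per kb in WT tumor samples, against 41.2 and 5.8 in WT hypoxia cultures and 44.2 and 8 in WT normoxia cultures.

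**Figure D1:**
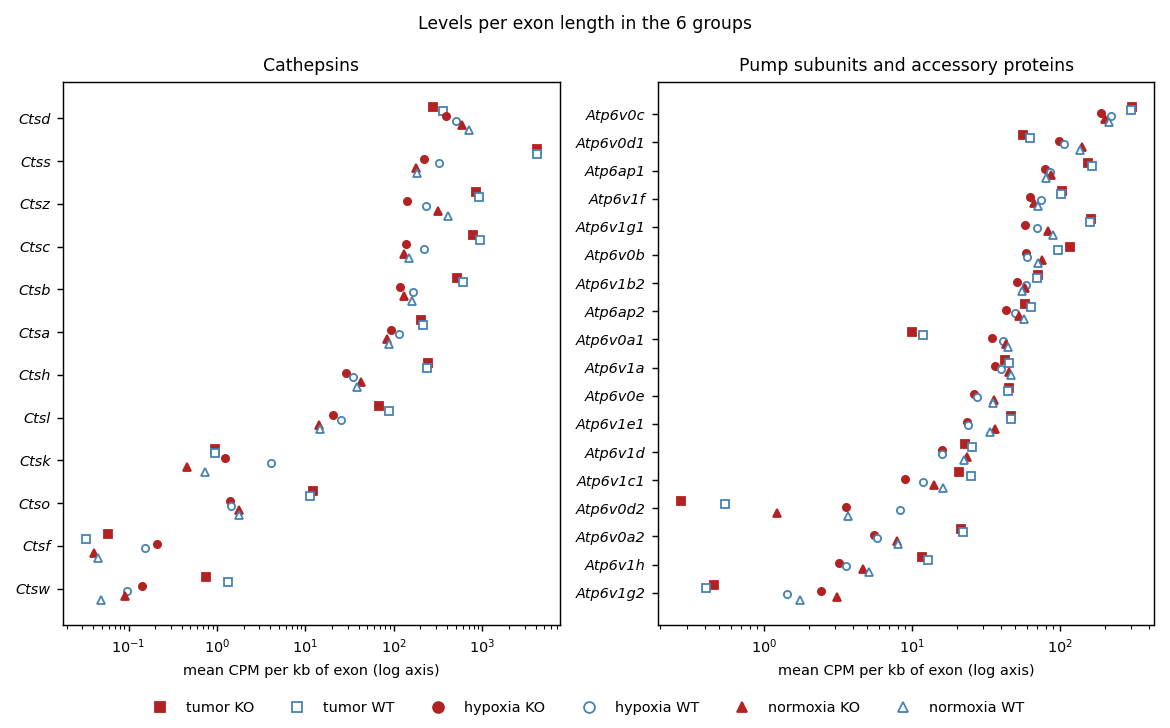
Mean CPM per kb of exon (log axis) of the cathepsins (left) and the pump genes (right) in the 6 groups, red for KO and blue for WT, with squares for tumor, circles for hypoxia and triangles for normoxia. Ctss stands highest in tumor and Ctsd in the cultures, and the lowest pump value plotted is that of Atp6v0d2 in KO tumor samples.

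The promoters are shown because an E-box, CACGTG, is the core of the site that the TFEB family is known to bind. RefSeq windows of 300 bases (GRCm38.p6, 250 before to 50 after the start) were found for 11 cathepsin and 19 pump genes. CACGTG, which reads the same on both strands, stood in windows of 4 of these 11 cathepsin genes (Ctsa, Ctsd, Ctsf and Ctsl), which is 36.36%. Among pump genes it stood in 4 of 19 (Atp6v0b, Atp6v0d1, Atp6v0e and Atp6v1a), which is 21.05%. Of all genes with a window 8.09% had it, and of all windows 7.15%. The longer TCACGTG, searched on both strands and overlapping the shorter motif, was in 2 of 11 cathepsin and 4 of 19 pump genes, against 4.29% of all genes. A match is a description of letters and not a measured binding site. Below are 2 cathepsin and 2 pump promoters with the motif and, for contrast, those of Ctsz and Ctsk, which hold no match in this window. Ctsz and Ctsk were called lower in KO hypoxia cultures, as was Ctsd, which holds the motif. Ctsa, Atp6v0b and Atp6v0d1 hold it too and were not called there. Capitals mark CACGTG.
Ctsd (chr7:142387778-142388077, minus strand): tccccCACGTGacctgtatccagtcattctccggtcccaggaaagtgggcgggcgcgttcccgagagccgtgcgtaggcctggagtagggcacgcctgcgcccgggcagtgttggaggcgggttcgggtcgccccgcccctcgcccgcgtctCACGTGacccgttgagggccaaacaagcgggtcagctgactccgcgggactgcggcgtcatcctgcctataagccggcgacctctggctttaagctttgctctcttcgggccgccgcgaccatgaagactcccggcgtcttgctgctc
Ctsa (chr2:164833523-164833822, plus strand): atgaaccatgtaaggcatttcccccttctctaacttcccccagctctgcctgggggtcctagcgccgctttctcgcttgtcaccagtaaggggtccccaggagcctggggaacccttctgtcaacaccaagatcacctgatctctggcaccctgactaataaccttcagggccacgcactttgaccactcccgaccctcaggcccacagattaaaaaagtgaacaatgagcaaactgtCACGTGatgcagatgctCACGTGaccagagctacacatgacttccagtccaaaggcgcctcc
Atp6v0b (chr4:117887280-117887579, minus strand): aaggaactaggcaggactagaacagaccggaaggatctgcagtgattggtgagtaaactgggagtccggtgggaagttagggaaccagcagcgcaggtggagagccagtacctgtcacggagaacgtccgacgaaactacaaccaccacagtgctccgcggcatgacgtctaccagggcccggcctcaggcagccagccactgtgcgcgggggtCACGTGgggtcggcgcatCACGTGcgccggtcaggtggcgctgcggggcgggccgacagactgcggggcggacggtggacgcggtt
Atp6v0d1 (chr8:105566015-105566314, minus strand): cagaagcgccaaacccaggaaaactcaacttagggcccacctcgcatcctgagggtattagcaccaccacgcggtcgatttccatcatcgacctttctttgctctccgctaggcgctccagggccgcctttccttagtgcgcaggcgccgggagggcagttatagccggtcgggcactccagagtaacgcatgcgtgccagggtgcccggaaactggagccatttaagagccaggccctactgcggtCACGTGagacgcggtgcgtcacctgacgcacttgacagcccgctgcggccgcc
Ctsz (chr2:174438990-174439289, minus strand): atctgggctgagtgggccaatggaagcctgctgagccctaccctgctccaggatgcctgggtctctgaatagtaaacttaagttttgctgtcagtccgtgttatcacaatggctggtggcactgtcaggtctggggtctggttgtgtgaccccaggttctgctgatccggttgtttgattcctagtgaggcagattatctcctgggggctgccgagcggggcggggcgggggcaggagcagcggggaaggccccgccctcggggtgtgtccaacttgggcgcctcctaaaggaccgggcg
Ctsk (chr3:95498960-95499259, plus strand): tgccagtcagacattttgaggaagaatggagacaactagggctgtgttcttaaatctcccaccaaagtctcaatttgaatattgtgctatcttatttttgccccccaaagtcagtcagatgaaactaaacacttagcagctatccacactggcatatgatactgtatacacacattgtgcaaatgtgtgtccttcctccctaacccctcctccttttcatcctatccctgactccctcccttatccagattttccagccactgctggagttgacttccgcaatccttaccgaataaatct
In Ctsa the motif begins 12 bases before and 5 bases after the RefSeq start of the window shown. That start lies downstream of the annotated gene start, where the other Ctsa window (chr2:164832622-164832921) holds 0 matches. In Ctsd the motif begins 98 and 245 bases before the RefSeq start. In Atp6v0b it begins 18 and 36 bases before it, and in Atp6v0d1 3 bases before it.

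In hypoxia cultures without VISTA, 5 of 11 tested cathepsins were lower and 0 higher, by edgeR's quasi-likelihood test with an adjusted p under 0.05 over all genes. Of all 15018 genes tested there, 17.6% were called lower, 17.4% higher and 34.9% in either direction. The median log2 fold change, KO over WT, was -0.37 over the tested cathepsins and -0.01 over all genes. The sum over all cathepsins was 3637 ± 475 CPM in KO and 5122 ± 559 CPM in WT hypoxia cultures (SD, n = 4 each). In bulk RNA, fewer cells of a type and less RNA per cell cannot be told apart. Macrophage markers, 2 of 10 of which were called higher and 0 lower, summed to 778 to 1441 CPM in KO and 1131 to 1642 CPM in WT hypoxia cultures, while neutrophil markers were higher in KO, with 9 of 10 called. Dendritic cell markers, 2 of 8 of which were called higher and 1 lower, summed to 99.8 to 221 CPM in KO and 210 to 300 CPM in WT hypoxia cultures. Mast cell and basophil markers, with 8 of 8 called higher, summed to 739 to 1067 CPM in KO and 476 to 737 CPM in WT hypoxia cultures. The part of these cells in the cathepsin values was not tested. The genotypes did not overlap for 5 of 11 cathepsins and 9 of 18 pump genes, against 32.6% of all genes tested.

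Among the endopeptidases, Ctsb, a cysteine protease that also cuts from the carboxyl end, had 770.1, 664, 797 and 599.8 CPM in KO hypoxia cultures, against 962, 1139, 990.2 and 887 CPM in WT hypoxia cultures. The genotypes did not overlap (log2 fold change -0.49 ± 0.10 SE, adjusted p = 0.00347). Ctsd had 1041, 905, 922 and 819 CPM in KO hypoxia cultures, against 1185, 1336, 1186 and 1049 CPM in WT hypoxia cultures, with the lowest WT library just above the highest KO one (log2 fold change -0.37 ± 0.09 SE, adjusted p = 0.00812). Of the exon bases of Ctsd, 34.4% are shared with the predicted gene Gm49369 on the same strand, and how reads there were assigned is not given in the sources used here. Ctsb shares 12.8% of its exon bases with Fdft1 on the opposite strand. Ctsa shares 10.5% with Pltp and 6.9% with Neurl2, also on the opposite strand. Ctsk, the collagen-cutting protease best known from osteoclasts, had 1.8, 1.42, 3.07 and 1.24 CPM in KO hypoxia cultures, against 6.23, 8.9, 5.24 and 4.11 CPM in WT hypoxia cultures. No KO library reached the WT range, and the fold was the largest of the tested cathepsins (log2 fold change -1.70 ± 0.30 SE, adjusted p = 0.00147). Ctss had 361, 266, 367 and 187 CPM in KO hypoxia cultures, against 441, 579.5, 405 and 340.4 CPM in WT hypoxia cultures. Its groups overlapped and it missed the threshold (log2 fold change -0.58 ± 0.22 SE, adjusted p = 0.0692), which it passed without WT replicate 4 (adjusted p = 0.0335). Ctsl, the endopeptidase of many cell types, had 151, 129, 145 and 106 CPM in KO hypoxia cultures, against 181, 189.7, 155 and 136 CPM in WT hypoxia cultures, also with overlap (log2 fold change -0.32 ± 0.12 SE, adjusted p = 0.0629). It passed without KO replicate 1 or WT replicate 4 (adjusted p = 0.0498 and 0.0265 in edgeR). WT replicate 4 was the lowest WT library for both Ctss and Ctsl, and KO replicate 1 the highest KO library for Ctsl. Leaving these out had to widen the gap.

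Of the exopeptidases, Ctsc and Ctsz were called lower in the same comparison. Ctsc, a dipeptidyl peptidase that activates granule proteases of neutrophils and mast cells, had 904, 764, 862 and 668 CPM in KO hypoxia cultures, against 1298, 1460.2, 1276 and 1117 CPM in WT hypoxia cultures. The highest KO library stood below the lowest WT one (log2 fold change -0.69 ± 0.10 SE, adjusted p = 0.000511). Ctsz, a carboxypeptidase, had 209, 209, 204 and 196 CPM in KO hypoxia cultures, against 337, 305, 374 and 326 CPM in WT hypoxia cultures, with KO libraries in a narrow range far under WT (log2 fold change -0.71 ± 0.07 SE, adjusted p = 2.55e-05). Ctsa, a serine carboxypeptidase that also shields lysosomal galactosidase and neuraminidase, had 488, 409.6, 496 and 347 CPM in KO hypoxia cultures, against 508, 651, 487 and 506 CPM in WT hypoxia cultures. The groups overlapped, WT replicate 2 stood above the other WT libraries, and no call was made (log2 fold change -0.31 ± 0.12 SE, adjusted p = 0.0695), although it passed without KO replicate 3 (adjusted p = 0.0480 in edgeR). KO replicate 3 was the highest KO library for Ctsa, so leaving it out had to widen the gap. Ctsh, an aminopeptidase, had 151, 136, 133 and 103 CPM in KO hypoxia cultures, against 152, 185, 143 and 138 CPM in WT hypoxia cultures and overlapped as well (log2 fold change -0.24 ± 0.12 SE, adjusted p = 0.134). Ctso and Ctsf, cysteine proteases at low levels here, had log2 fold changes of -0.06 ± 0.15 and 0.44 ± 0.30 SE and were not called (adjusted p = 0.773 and 0.265 in edgeR). Ctsf was the single tested cathepsin with an estimate above 0, and it passed without KO replicate 4 and WT replicate 2 together (log2 fold change 0.89, adjusted p = 0.0106). These were its lowest KO library (0.553 CPM) and its highest WT library (1.12 CPM), so leaving them out had to widen the gap.

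In normoxia cultures 1 of 10 tested was called lower and 0 higher, against 4.17% of 13950 genes called lower, 7.13% higher and 11.3% either way. The median log2 fold change was -0.12 over the tested cathepsins and -0.02 over all genes. Ctsb had 777, 749, 793 and 810.1 CPM in KO normoxia cultures, against 1006, 879, 1093 and 939 CPM in WT normoxia cultures, with KO libraries close together and all under WT (log2 fold change -0.32 ± 0.09 SE, adjusted p = 0.0363). It was called without the farthest normoxia pair (log2 fold change -0.29, adjusted p = 0.0232), but not when KO replicate 1, 2 or 3 or WT replicate 1 or 4 was left out (adjusted p up to 0.0974 in edgeR). Ctsz had 473, 517, 476 and 375 CPM in KO normoxia cultures, against 586, 625, 535 and 585 CPM in WT normoxia cultures, without overlap (log2 fold change -0.34 ± 0.10 SE, adjusted p = 0.0538), and passed without the farthest normoxia pair (log2 fold change -0.30, adjusted p = 0.0152). Leaving out KO replicate 2 or WT replicate 3 alone had the same effect for Ctsz (adjusted p = 0.0301 and 0.0424 in edgeR). These were its highest KO and its lowest WT library, so leaving out either alone had to widen the gap. Ctsd had 1348, 1192, 1464 and 1475 CPM in KO normoxia cultures, against 1606, 1524, 1828 and 1676 CPM in WT normoxia cultures, where the highest KO library was under the lowest WT one (log2 fold change -0.28 ± 0.10 SE, adjusted p = 0.0823). Ctsc had 769.7, 713, 783 and 785 CPM in KO normoxia cultures, against 953, 818, 886 and 818 CPM in WT normoxia cultures, again without overlap (log2 fold change -0.19 ± 0.08 SE, adjusted p = 0.141). In all, 4 of the 10 had no overlap between genotypes, against 20% of all genes tested. Neutrophil markers were higher in KO normoxia cultures, with 9 of 10 called, and macrophage markers, with 3 of 10 called higher and 0 lower, summed to 678 to 935 CPM in KO and 698 to 1043 CPM in WT. Mast cell and basophil markers, with 7 of 7 tested called higher, summed to 93.4 to 128 CPM in KO and 44.5 to 64.2 CPM in WT normoxia cultures. Dendritic cell markers, with 2 of 6 tested called higher and 0 lower, summed to 68.6 to 139.8 CPM in KO and 34.7 to 59.6 CPM in WT. The part of these cells in the normoxia values was not tested.

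The other cathepsins overlapped in normoxia. Ctsk had 0.509, 0.294, 0.67 and 1.33 CPM in KO normoxia cultures, against 0.993, 0.9, 1.53 and 0.955 CPM in WT normoxia cultures (log2 fold change -0.65 ± 0.38 SE, adjusted p = 0.255), at under 2 CPM in each library. Ctsl averaged 92.3 ± 20.6 CPM in KO and 95.2 ± 16.4 CPM in WT normoxia cultures, Ctss 242 ± 61.8 and 248 ± 62.2, Ctsa 396 ± 33.6 and 413 ± 56.1, and Ctsh 190.2 ± 29.7 and 172 ± 20.9 (mean ± SD, n = 4 each). Their log2 fold changes lay between -0.06 for Ctsa and 0.14 for Ctsh, with edgeR adjusted p of at least 0.432. Ctso was at -0.01 (adjusted p = 0.965).

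In MC38 tumor samples 0 of 11 tested cathepsins were called by edgeR, against 3.04% of 14370 genes called lower, 3.28% higher and 6.32% either way. At an unadjusted p under 0.05 there were 4, all lower in KO, and DESeq2 called 3. With replicate number as a block edgeR called 4. The shares of all genes under these criteria are not given here, so the counts have no baseline. No label says that the numbers mark pairs, although 6 of 6 tumor libraries correlated best with their own number in the other genotype. Ctsl had 384, 409 and 512 CPM in KO tumor samples, against 520.1, 557 and 652 CPM in WT tumor samples, with no overlap (log2 fold change -0.41 ± 0.12 SE, adjusted p = 0.071). Ctsc had 4227, 4450.1 and 4962 CPM in KO tumor samples, against 5129, 5522 and 5859 CPM in WT tumor samples, with no overlap either (log2 fold change -0.28 ± 0.08 SE, adjusted p = 0.071). Ctsd had 565, 620.2 and 782 CPM in KO tumor samples, against 739.6, 861 and 956 CPM in WT tumor samples, with KO replicate 3 inside the WT range (log2 fold change -0.38 ± 0.13 SE, adjusted p = 0.127). Ctsb had 2832, 3082 and 3366 CPM in KO tumor samples, against 3290.0, 3719 and 3863 CPM in WT tumor samples, overlapping likewise (log2 fold change -0.23 ± 0.09 SE, adjusted p = 0.155). Without KO replicate 3, Ctsl, Ctsc and Ctsd passed the threshold (adjusted p = 0.00373, 0.0276 and 0.00673 in edgeR), and Ctsl also without WT replicate 1 (adjusted p = 0.0487). KO replicate 3 was the highest KO library for all of them, and WT replicate 1 the lowest WT library for Ctsl. Leaving out either of these alone had to widen the gap. The same genes, Ctsl, Ctsc and Ctsd, passed without replicate 3 of both genotypes, at log2 fold changes of -0.45, -0.31 and -0.45 (adjusted p = 0.000799, 0.0183 and 0.00251 in edgeR). Dendritic cell markers, with 4 of 8 called higher and 0 lower, summed to 5257 to 7372 CPM in KO and 3109 to 4167 CPM in WT tumor samples, and the KO libraries were the shallower ones. Their part in these values was not tested. The overlap of Ctsl exons with the antisense gene Gm47123 covers 26.8% of its exon bases, and without strand those reads cannot be told apart.

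Ctss, the most abundant cathepsin per exon length in tumor, had nearly the same level in both genotypes there, with 5488, 5694 and 5777 CPM in KO tumor samples, against 5439.6, 5755 and 5627 CPM in WT tumor samples (log2 fold change 0.01 ± 0.07 SE, adjusted p = 0.952). Ctsz, the member with the smallest adjusted p in hypoxia, had 1195, 1285 and 1223 CPM in KO tumor samples, against 1267, 1472 and 1247 CPM in WT tumor samples (log2 fold change -0.11 ± 0.08 SE, adjusted p = 0.497), and its groups overlapped. Ctsw had 1.44, 0.944 and 1.86 CPM in KO tumor samples, against 1.71, 1.6 and 4.24 CPM in WT tumor samples (log2 fold change -0.83 ± 0.41 SE, adjusted p = 0.29), its highest value coming from WT replicate 3. The markers of T and NK cells, the cells known for Ctsw, summed to 16.4 to 22.6 CPM in KO and 38.3 to 71.7 CPM in WT tumor samples, with 5 of 10 called lower and 0 higher. Their part in the Ctsw value was not tested. Ctsk averaged 1.45 ± 0.563 CPM in KO and 1.46 ± 1.4 CPM in WT tumor samples (SD, n = 3 each), and was not called (adjusted p = 0.999 in edgeR). Ctsa, Ctsh and Ctso had log2 fold changes of -0.04, 0.05 and 0.09 and were not called (edgeR adjusted p of at least 0.62).

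**Figure D2:**
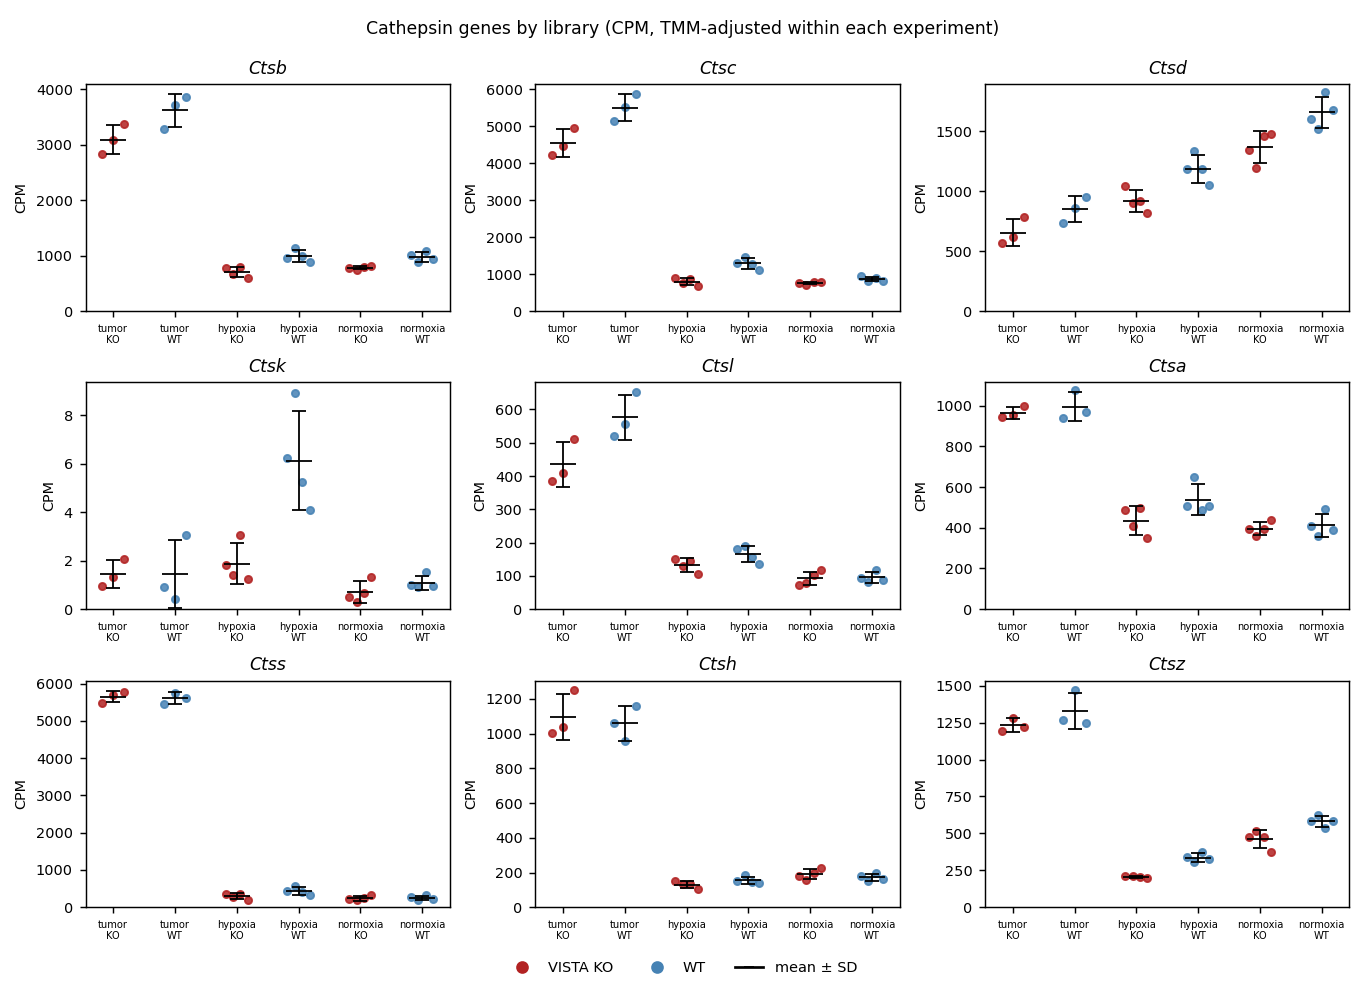
CPM of 9 cathepsin genes in each library (points), with the mean and SD of each group (lines), KO in red and WT in blue, for tumor (n = 3 each), hypoxia and normoxia (n = 4 each). In hypoxia the KO and WT points of Ctsb, Ctsc, Ctsd, Ctsk and Ctsz do not overlap. All genes shown but Ctsd and Ctsk stand higher in tumor than in cultures, several times so for Ctsb, Ctsc, Ctsh, Ctsl and Ctss.

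In hypoxia cultures 8 of 18 tested pump genes were called lower in KO and 1 higher, against the 17.6% and 17.4% of all genes given above. The folds were small apart from those of Atp6v0d2 and Atp6v1g2, forms known from particular tissues. The median log2 fold change was -0.15, against -0.01 over all genes. With a fold of 1.2 asked for in the test, 2 remained called in either direction. The share of all genes called at that fold is not given here, so this count has no baseline. The sum over all pump genes was 2547 ± 58.8 CPM in KO and 2876 ± 87.2 CPM in WT hypoxia cultures (SD, n = 4 each). In normoxia 1 of 18 was called lower and 1 higher, against 4.17% and 7.13% of all genes. In tumor 1 of 18 was lower and 0 higher, against 3.04% and 3.28%. Non-overlap in normoxia was seen for 3 of 18 pump genes, against the 20% of all genes given above.

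Atp6v0d2, the form of the d subunit known from osteoclasts and macrophages, had the largest fold of all members in normoxia, at 3.22, 2.73, 2.55 and 4.81 CPM in KO normoxia cultures, against 10.3, 5.97, 12.9 and 11 CPM in WT normoxia cultures. The groups did not overlap (log2 fold change -1.59 ± 0.25 SE, adjusted p = 0.00458). In hypoxia it had 8.21, 8.37, 13.8 and 8.68 CPM in KO hypoxia cultures, against 22.2, 29.7, 22.6 and 15.5 CPM in WT hypoxia cultures, where KO replicate 3 stood above the other KO libraries and below each WT library (log2 fold change -1.2 ± 0.21 SE, adjusted p = 0.00172). The call held in both cultures under each alternative tried, with adjusted p of at most 0.00793 in hypoxia and 0.0223 in normoxia by edgeR or DESeq2. In tumor, at the edge of detection, it had 0.305, 0.377 and 1.55 CPM in KO tumor samples, against 1.44, 1.03 and 1.96 CPM in WT tumor samples, and KO replicate 3 lay inside the WT range (log2 fold change -1.01 ± 0.54 SE, adjusted p = 0.33). Without that library the log2 fold change was -2.10 and the adjusted p = 0.0154 in edgeR, and without replicate 3 of both genotypes -1.85 and 0.0294. KO replicate 3 was the highest KO library, so leaving it out alone had to widen the gap.

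The common d subunit was not called. Atp6v0d1 averaged 251 ± 9.68 CPM in KO and 244 ± 13.1 CPM in WT normoxia cultures, with overlap (log2 fold change 0.04 ± 0.07 SE, adjusted p = 0.73). In hypoxia it had 179, 177, 182 and 171 CPM in KO hypoxia cultures, against 194, 202, 187 and 177 CPM in WT hypoxia cultures, overlapping too (log2 fold change -0.10 ± 0.06 SE, adjusted p = 0.209). In tumor it had 99.4, 99.5 and 102 CPM in KO tumor samples, against 113, 116 and 110.4 CPM in WT tumor samples, without overlap and without a call (log2 fold change -0.17 ± 0.07 SE, adjusted p = 0.155). Per exon length Atp6v0d2 was at 3.6 and 8.28 CPM per kb in KO and WT hypoxia cultures, and the common form Atp6v0d1 at 98.9 and 106. Of the osteoclast markers, Dcstamp and Ocstamp, which act in cell fusion, were called lower in KO hypoxia cultures, by -0.96 and -1.07 on the log2 scale (adjusted p = 0.00754 and 0.0361 in edgeR), as was Acp5 (-0.43, adjusted p = 0.0283), while Mmp9 and Nfatc1 were called higher. The calcitonin receptor gene Calcr, which defines mature osteoclasts, was at most 0.0976 CPM in hypoxia. The summed osteoclast markers, of which Mmp9 made the most in culture, were 351 to 545 CPM in KO and 269 to 311 CPM in WT hypoxia cultures, with 2 of 5 tested called higher and 3 lower. In normoxia they were 670 to 1477 CPM in KO and 432 to 619 CPM in WT cultures, where Mmp9 was called higher and Ocstamp lower, by -1.61 on the log2 scale (adjusted p = 0.0325 in edgeR). Whether cells of that kind bear on Atp6v0d2 and Ctsk was not tested.

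Atp6v1g2, a form of the peripheral stalk subunit known from neurons, was the pump gene called higher in both cultures. It had 8.36, 6.13, 7.41 and 9.31 CPM in KO normoxia cultures, against 3.34, 4.29, 5.39 and 4.61 CPM in WT normoxia cultures, without overlap (log2 fold change 0.82 ± 0.17 SE, adjusted p = 0.0148). In hypoxia it had 5.77, 5.9, 7.42 and 5.24 CPM in KO hypoxia cultures, against 3.29, 3.68, 3.09 and 4.32 CPM in WT hypoxia cultures, again with each KO library above each WT library (log2 fold change 0.76 ± 0.15 SE, adjusted p = 0.00237). The normoxia call was lost without WT replicate 1 (adjusted p = 0.056 in edgeR) and kept without the farthest normoxia pair (adjusted p = 0.00518). Its common counterpart Atp6v1g1 had 67, 64.6, 65.2 and 65.5 CPM in KO hypoxia cultures, against 88.5, 78.9, 77.6 and 71.3 CPM in WT hypoxia cultures, each KO library being under each WT library (log2 fold change -0.27 ± 0.07 SE, adjusted p = 0.0111). In normoxia Atp6v1g1 overlapped (log2 fold change -0.11 ± 0.08 SE, adjusted p = 0.362). The level of Atp6v1g2 was small beside it: 2.42 and 1.43 CPM per kb in KO and WT hypoxia cultures, against 57.8 and 69.7 for Atp6v1g1. Atp6v1g2 shares 5.7% of its exon bases with Nfkbil1 on the opposite strand, and in tumor it was not called (log2 fold change 0.17 ± 0.36 SE, adjusted p = 0.844).

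Atp6v1c1, the subunit that links V1 to V0 as the pump assembles, was the single pump gene called in tumor, with 118, 116 and 118 CPM in KO tumor samples, against 140.0, 144 and 136 CPM in WT tumor samples. The KO libraries lay within a few CPM of each other and below WT (log2 fold change -0.26 ± 0.06 SE, adjusted p = 0.0331). That call was lost when KO replicate 1, 2 or 3 or WT replicate 1 or 2 was left out, with adjusted p up to 0.167 in edgeR and log2 fold changes between -0.27 and -0.24. In hypoxia Atp6v1c1 had 47.7, 47.1, 54.6 and 52.5 CPM in KO hypoxia cultures, against 72.3, 64.9, 67.9 and 61.4 CPM in WT hypoxia cultures, without overlap (log2 fold change -0.40 ± 0.07 SE, adjusted p = 0.00172). In normoxia it had 80.7, 82.7, 79 and 73.2 CPM in KO normoxia cultures, against 96.9, 94.3, 83.8 and 90.6 CPM in WT normoxia cultures, without overlap and without a call (log2 fold change -0.21 ± 0.08 SE, adjusted p = 0.0942), and it was called without the farthest normoxia pair (adjusted p = 0.0367) and without WT replicate 3 alone (adjusted p = 0.0475 in edgeR). Each KO library thus lay below each WT library of its experiment in all 3 experiments. Normoxia WT replicate 3 was the lowest WT library for Atp6v1c1 there, so leaving it out alone had to widen the gap.

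Of the remaining V1 genes, 1 of those of the ATP-hydrolysing head was called. Atp6v1a, the catalytic subunit, averaged 219.8 ± 7.56 CPM in KO and 242 ± 8.43 CPM in WT hypoxia cultures and overlapped (log2 fold change -0.14 ± 0.06 SE, adjusted p = 0.0768). Atp6v1b2, its partner in the head, had 279, 263, 290.5 and 256 CPM in KO hypoxia cultures, against 307, 325, 331 and 285 CPM in WT hypoxia cultures and was called despite overlap (log2 fold change -0.20 ± 0.07 SE, adjusted p = 0.0394). Atp6v1f, of the central rotor, had 72.7, 63.5, 66.3 and 65.5 CPM in KO hypoxia cultures, against 85.8, 73.9, 81.3 and 73.8 CPM in WT hypoxia cultures, without overlap (log2 fold change -0.23 ± 0.07 SE, adjusted p = 0.0242). Both calls depended on single libraries: Atp6v1b2 lost its call without KO replicate 1, 2 or 4 or WT replicate 1, 2 or 3 (adjusted p up to 0.109), and 0.117 without the farthest pair, KO replicate 4 and WT replicate 2, and Atp6v1f without KO replicate 2, 3 or 4 or WT replicate 1 or 3 (adjusted p up to 0.0764 in edgeR). Atp6v1d, Atp6v1e1 and Atp6v1h had log2 fold changes of 0.01, -0.02 and -0.16 in hypoxia and were not called there, in normoxia or in tumor. Atp6v1h passed in hypoxia without WT replicate 2 (adjusted p = 0.0383) and without the farthest pair (0.0390).

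In the membrane part, Atp6v0c had 631, 646, 649 and 621 CPM in KO hypoxia cultures, against 761, 762, 736 and 742 CPM in WT hypoxia cultures, with a clear gap between the genotypes and a small fold (log2 fold change -0.24 ± 0.05 SE, adjusted p = 0.00587). Atp6v0a1, whose product forms the proton path with the ring, had 217, 232, 243 and 225 CPM in KO hypoxia cultures, against 249, 289, 268 and 275 CPM in WT hypoxia cultures, without overlap (log2 fold change -0.24 ± 0.06 SE, adjusted p = 0.0141). In tumor Atp6v0a1 had 65.4, 67.1 and 63.8 CPM in KO tumor samples, against 72.8, 83.2 and 76.5 CPM in WT tumor samples, without overlap and without a call (log2 fold change -0.24 ± 0.07 SE, adjusted p = 0.0776). The ring gene Atp6v0b was the pump gene with the largest estimate above 0 in tumor, with 242, 235 and 247 CPM in KO tumor samples, against 212, 169 and 213 CPM in WT tumor samples, also apart and not called (log2 fold change 0.29 ± 0.09 SE, adjusted p = 0.0828), although it passed without replicate 3 of both genotypes (adjusted p = 0.0419). Atp6v0a2 and Atp6v0e were not called in any of the KO comparisons. In tumor 6 of 18 pump genes and 2 of 11 cathepsins had genotypes that did not overlap, against 26.1% of all genes tested.

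The accessory proteins help assemble the pump and carry it along the secretory route. Atp6ap2, the prorenin receptor, had 111, 111, 111 and 119 CPM in KO hypoxia cultures, against 139, 119, 140.1 and 122 CPM in WT hypoxia cultures, where KO replicate 4 stood above the other KO libraries and just below WT (log2 fold change -0.20 ± 0.07 SE, adjusted p = 0.0402). The call was lost without KO replicate 1, 2 or 3 or WT replicate 1 or 3 (adjusted p up to 0.138 in edgeR). Atp6ap1 had 265, 242, 240.1 and 217 CPM in KO hypoxia cultures, against 255, 285, 254 and 249 CPM in WT hypoxia cultures, with overlap (log2 fold change -0.11 ± 0.07 SE, adjusted p = 0.245), and was not called in normoxia or tumor. Tcirg1, the a3 subunit outside the symbol rule and part of the osteoclast pump, averaged 464 ± 29.4 and 415 ± 23.7 CPM in KO and WT tumor samples, 244 ± 15.3 and 251 ± 9.15 in hypoxia and 345 ± 28.9 and 321 ± 27.8 in normoxia. It was not called in any of these (edgeR adjusted p of at least 0.242).

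**Figure D3:**
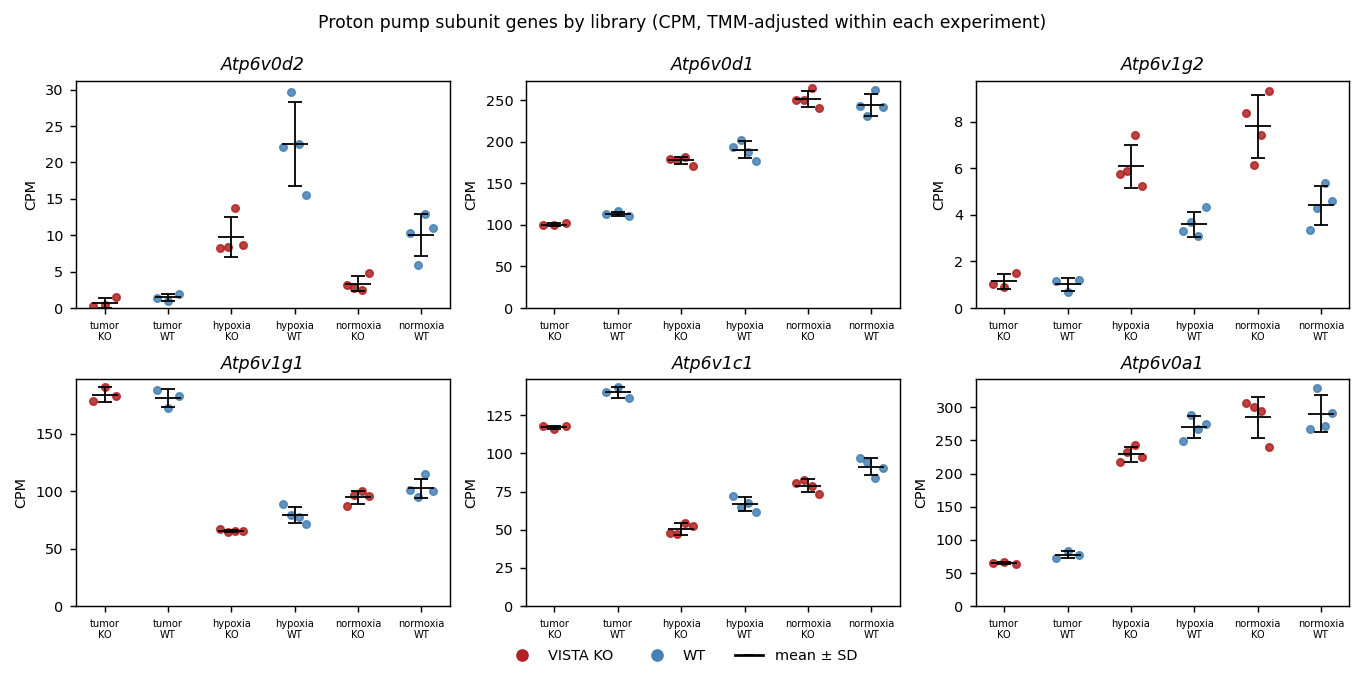
CPM of 6 pump genes in each library (points), with the mean and SD of each group (lines), KO in red and WT in blue, for tumor (n = 3 each), hypoxia and normoxia (n = 4 each). Atp6v0d2 is lower and Atp6v1g2 higher in KO than in WT cultures without overlap, while Atp6v0d1 overlaps in the cultures.

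**Figure D4:**
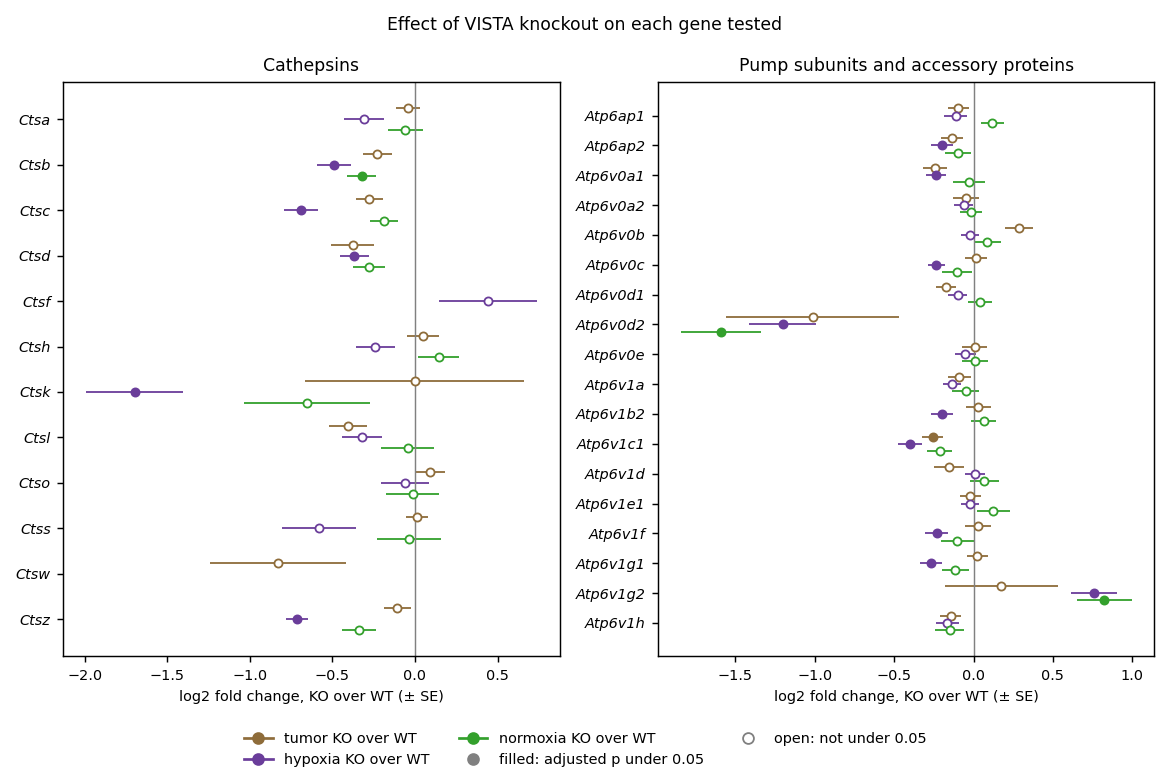
Log2 fold changes of KO over WT with their SE (bars) for the tested cathepsins (left) and pump genes (right), in tumor (brown), hypoxia (purple) and normoxia (green), filled where the adjusted p is under 0.05. Most cathepsin estimates lie left of 0, and pump estimates crowd near 0 apart from Atp6v0d2 and Atp6v1g2.

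Whether the knockout acted differently in the 2 culture conditions was tested as the difference of the KO effects, hypoxia minus normoxia, over the 16 culture libraries. By edgeR 0 of 11 cathepsins and 0 of 18 pump genes were called in either direction, against 0.477% of 15293 genes, 0.288% with a lower and 0.19% with a higher value. At an unadjusted p under 0.05 there were 2 cathepsins and 2 pump genes, and DESeq2 called 1, Ctsc. How many of all genes met these criteria is not given here, so the counts have no baseline. For Ctsc the difference was -0.50 ± 0.14 SE (unadjusted p = 0.00177, adjusted p = 0.147 in edgeR and 0.0448 in DESeq2), and for Ctsz -0.37 ± 0.12 SE (adjusted p = 0.297). For Ctsk it was -1.04 ± 0.54 SE (adjusted p = 0.696), and for Atp6v0d2 0.39 ± 0.36 SE (adjusted p = 0.914). Estimates lay below 0 for 10 of 11 cathepsins and 17 of 18 pump genes, against 7978 of 15293 genes. Their medians were -0.28 and -0.12, against -0.01 over all genes. In the lists described below, estimates under 0 were seen for 31 of 40 other hydrolase genes, 19 of 24 membrane genes and 12 of 15 sorting genes. The same held for 15 of 21 MiT/TFE genes, 5 of 9 inhibitors and 6 of 12 assembly genes, so the lean was not particular to the members.

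Between KO hypoxia and KO normoxia cultures, 3 of 11 tested cathepsins were called higher in hypoxia and 3 lower, against 26.1% of 15293 genes called higher, 25.6% lower and 51.7% either way. In WT cultures 6 of 11 were higher and 2 lower, against 26.6% and 25% of all genes, 51.7% either way. The median log2 fold change was 0.18 over the tested cathepsins in KO and 0.50 in WT, and over all genes -0.02 in KO and -0.01 in WT. With library size alone as the scaling, the median of all genes shifted by -0.14 in WT. The oxygen groups did not overlap for 3 of 11 cathepsins and 11 of 18 pump genes in KO, against 43.3% of all genes, and for 8 of 11 and 9 of 18 in WT, against 46.9%. Macrophage markers moved too, with 6 of 10 called higher and 1 lower in KO and 5 higher and 0 lower in WT, as did mast cell and basophil markers, with 8 of 8 called higher in KO and 7 of 8 in WT. Of 8 dendritic cell markers 5 were called higher in KO and 6 in WT, with 0 lower in both. Of 10 neutrophil markers 1 was called higher and 3 lower in KO, and 1 higher and 5 lower in WT. Osteoclast markers had 1 of 5 higher and 1 lower in each genotype. Their part was not tested. Levels below come from scaling all 16 culture libraries together and so differ slightly from those above.

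Ctsk showed the largest contrast of the cathepsins in WT. In KO it was at 1.96 ± 0.858 CPM in hypoxia and 0.678 ± 0.441 CPM in normoxia, with overlap (log2 fold change 1.55 ± 0.40 SE, adjusted p = 0.00349, with levels as mean ± SD of 4 libraries throughout). In WT it was at 6.35 ± 2.1 CPM in hypoxia and 1.05 ± 0.276 CPM in normoxia, without overlap (log2 fold change 2.59 ± 0.34 SE, adjusted p = 7.21e-06). Ctsl was at 138 ± 21.2 CPM in KO hypoxia and 89 ± 20.9 CPM in KO normoxia cultures (log2 fold change 0.64 ± 0.16 SE, adjusted p = 0.00336). Its WT levels were 172 ± 25.2 CPM in hypoxia and 91.4 ± 15.5 CPM in normoxia (log2 fold change 0.91 ± 0.16 SE, adjusted p = 0.000172), so it rose in both genotypes. Ctsc had 833 ± 109.9 CPM in KO hypoxia and 734 ± 38.4 CPM in KO normoxia, without a call (log2 fold change 0.18 ± 0.10 SE, adjusted p = 0.123). That changed without hypoxia KO replicate 4 (adjusted p = 0.0251 in edgeR) and without the farthest hypoxia pair (0.0183). Hypoxia KO replicate 4 was the lowest KO hypoxia library for Ctsc, so leaving it out had to widen the gap. In WT hypoxia Ctsc rose to 1337 ± 143 CPM, against 834 ± 65 CPM in WT normoxia (log2 fold change 0.68 ± 0.10 SE, adjusted p = 1.33e-05).

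Ctss and Ctsa were not called in KO (log2 fold change 0.40 ± 0.24 and 0.25 ± 0.12 SE, adjusted p = 0.175 and 0.0909 in edgeR) and were higher in hypoxia in WT (0.95 ± 0.24 and 0.50 ± 0.12 SE, adjusted p = 0.00399 and 0.00224). In KO both passed without hypoxia KO replicate 4, at adjusted p = 0.0442 for Ctss and 0.0187 for Ctsa. They did so too without the farthest hypoxia pair (0.0331 and 0.00928), and Ctsa also without the farthest normoxia pair (0.0313) or normoxia KO replicate 4 alone (0.0470). Hypoxia KO replicate 4 was the lowest KO hypoxia library for both genes, and normoxia KO replicate 4 the highest KO normoxia library for Ctsa. Leaving these out had to widen the gap. Ctsf was higher in hypoxia in both genotypes, at about 1 CPM or less (2.42 in KO and 1.85 in WT on the log2 scale). With 41 counts in all normoxia libraries and 224 in hypoxia, it failed the filter in normoxia alone. It thus entered the joint fit through the hypoxia libraries, so the filter favoured this direction. Its calls are included in the counts of cathepsins called higher in hypoxia. Ctsz ran the other way, at 213 ± 7.17 CPM in KO hypoxia and 442 ± 53.5 CPM in KO normoxia cultures (log2 fold change -1.05 ± 0.09 SE, adjusted p = 1.71e-08). In WT it was at 348 ± 31.1 CPM in hypoxia and 559.7 ± 37.5 CPM in normoxia (log2 fold change -0.68 ± 0.09 SE, adjusted p = 3.92e-06), so KO hypoxia cultures held the lowest level of this gene among the 4 culture groups. Ctsd was lower in hypoxia in KO and WT (-0.46 and -0.37, adjusted p = 0.000582 and 0.00352), Ctsh in KO (-0.43, adjusted p = 0.0111), and Ctsb and Ctso were called in neither genotype. A call in one genotype and not in the other is no test of a difference between them.

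Among pump genes the called ones were mostly lower in hypoxia. In KO 10 of 18 were called lower and 1 higher, against 25.6% and 26.1% of all genes, with a median log2 fold change of -0.24. In WT 8 were lower and 3 higher, against 25% and 26.6%, with a median of -0.15. Atp6v0d2 had the largest fold and was higher in hypoxia, at 10.2 ± 2.78 CPM in KO hypoxia and 3.21 ± 1.04 CPM in KO normoxia cultures (log2 fold change 1.67 ± 0.27 SE, adjusted p = 8.8e-05). In WT it was at 23.3 ± 5.93 CPM in hypoxia and 9.63 ± 2.79 CPM in normoxia (log2 fold change 1.28 ± 0.24 SE, adjusted p = 0.000376). Atp6v0d1 was lower in hypoxia in KO (log2 fold change -0.39 ± 0.06 SE, adjusted p = 5.04e-05) and in WT, where it was at 197 ± 10.4 CPM in hypoxia and 234 ± 11.9 CPM in normoxia (log2 fold change -0.25 ± 0.06 SE, adjusted p = 0.00278).

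Called lower in hypoxia in both genotypes were also Atp6v0a2, Atp6v0e, Atp6v1c1, Atp6v1d, Atp6v1e1, Atp6v1g1 and Atp6v1h, with log2 fold changes of -0.53 to -0.32 in KO and -0.40 to -0.25 in WT. These cover V1 stalk and rotor subunits and V0 subunits. Atp6v0b and Atp6v1a were called lower in KO alone (-0.23 and -0.19), and Atp6v1a lost its call there without normoxia KO replicate 4 or hypoxia KO replicate 1, 2 or 4 (adjusted p up to 0.0811 in edgeR) or the farthest hypoxia pair (0.0686). Atp6ap1 and Atp6v1b2 were called higher in WT hypoxia (0.22 and 0.20), calls that were lost with library size alone as the scaling (0.09 and 0.06). Atp6v1b2 also lost it without normoxia WT replicate 2 or 4 or hypoxia WT replicate 2 or 3 (adjusted p up to 0.0966) or the farthest hypoxia pair (0.0657). Atp6v0a1, Atp6v0c, Atp6v1f, Atp6v1g2 and Atp6ap2 were called in neither genotype. Of these, Atp6v0a1 passed in KO without the farthest normoxia pair (adjusted p = 0.00419) or without normoxia KO replicate 4 (0.00608). Atp6ap2 passed in KO without normoxia KO replicate 1 (0.0208), and in WT Atp6v0c passed without normoxia WT replicate 2 (0.0435) and Atp6v1f without the farthest normoxia pair (0.0235) or normoxia WT replicate 3 (0.0377). For Atp6v0a1, Atp6ap2, Atp6v0c and Atp6v1f the single library left out was the normoxia library of its genotype closest to the hypoxia mean. Leaving it out had to widen the gap. Atp6v1a was not called in KO without the farthest normoxia pair (0.0562) and passed in WT without that pair (0.0488). With a fold of 1.2 asked for, 3 pump genes remained called in WT, a count with no baseline, since the share of all genes is not given here.

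**Figure D5:**
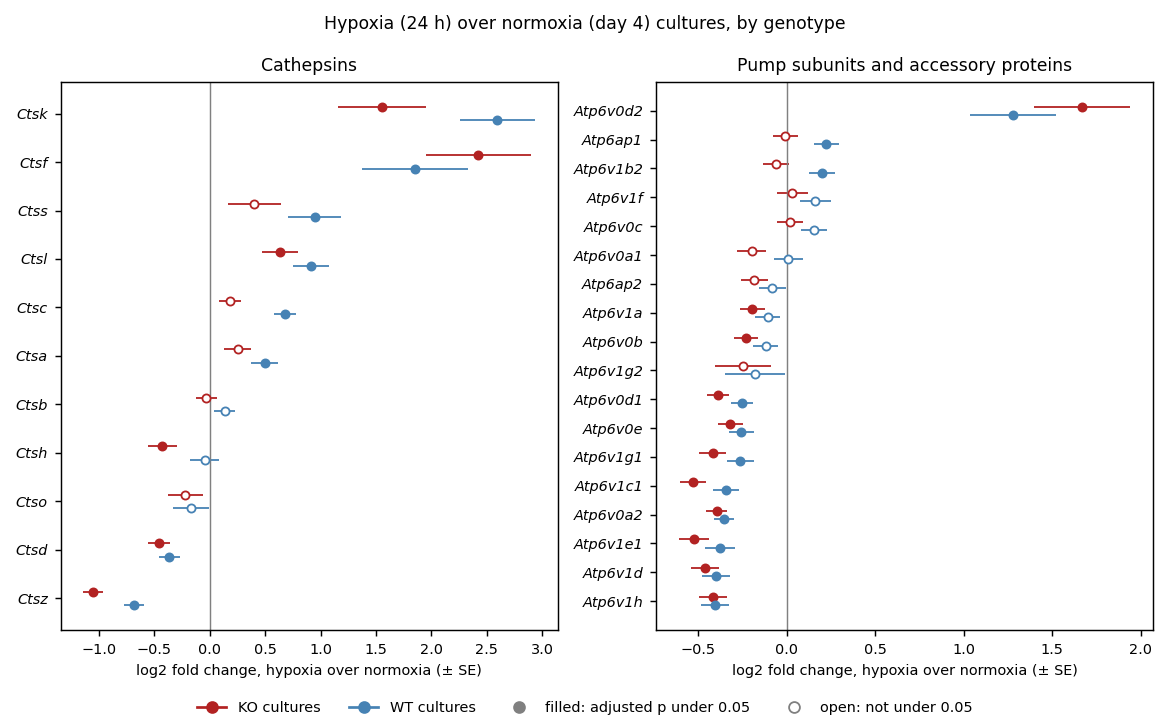
Log2 fold changes of hypoxia over normoxia with their SE (bars) for the tested cathepsins (left) and pump genes (right), in KO (red) and WT cultures (blue), filled where the adjusted p is under 0.05. Ctsk, Ctsf and Atp6v0d2 lie furthest right in both genotypes and Ctsz furthest left among cathepsins, and most pump genes lie left of 0.

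Other genes of the lysosome were read from lists beside the members, against the shares of all genes called that are given above. Of 40 lysosomal hydrolase genes outside the cathepsins, 14 were called lower and 3 higher in KO hypoxia cultures, 3 lower and 1 higher in normoxia, and 1 lower and 1 higher in tumor. Lipa, the acid lipase, averaged 123 ± 12 CPM in KO and 185 ± 15.1 CPM in WT hypoxia cultures (log2 fold change -0.59 ± 0.08 SE, adjusted p = 0.000325), and was lower in normoxia too (log2 fold change -0.44 ± 0.08 SE, adjusted p = 0.00668). Gusb, the beta-glucuronidase, fell in KO hypoxia (log2 fold change -0.55 ± 0.07 SE, adjusted p = 0.000233), whereas Arsb and Galc, a sulfatase and a galactosylceramidase, rose (log2 fold change 0.92 ± 0.12 SE, adjusted p = 0.000248; log2 fold change 0.54 ± 0.07 SE, adjusted p = 0.000127). In tumor Acp5, an acid phosphatase, rose (log2 fold change 0.69 ± 0.11 SE, adjusted p = 0.00197) and Glb1, the beta-galactosidase, fell (log2 fold change -0.42 ± 0.08 SE, adjusted p = 0.00823). Of 24 membrane and ion transport genes, 6 were lower and 4 higher in hypoxia, 0 and 1 in normoxia and 0 and 0 in tumor. Cd68, a heavily glycosylated membrane protein of phagocyte lysosomes, fell in KO hypoxia (log2 fold change -0.66 ± 0.12 SE, adjusted p = 0.00206) and the tetraspanin gene Cd63 rose (log2 fold change 0.41 ± 0.07 SE, adjusted p = 0.000797).

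Inhibitors of cathepsins went both ways. Of 9 tested, 2 were lower and 3 higher in KO hypoxia cultures, 1 lower and 2 higher in normoxia, and of 6 tested 0 were called in tumor. Cst3, the secreted cystatin C, averaged 242 ± 24.9 CPM in KO and 315 ± 21.2 CPM in WT hypoxia cultures (log2 fold change -0.38 ± 0.08 SE, adjusted p = 0.00428), and 360.4 ± 15.2 and 302 ± 34.1 CPM in KO and WT normoxia cultures (log2 fold change 0.26 ± 0.09 SE, adjusted p = 0.0841). The difference between these effects was called (-0.63 ± 0.12 SE, adjusted p = 0.0227 in edgeR). Cstb, the cytosolic cystatin B, was lower in KO in hypoxia and normoxia (log2 fold change -0.44 ± 0.07 SE, adjusted p = 0.000748; log2 fold change -0.28 ± 0.08 SE, adjusted p = 0.048). Stfa2 and Stfa3, stefins of neutrophils, were higher in both (0.67 and 0.79 in hypoxia, 0.55 and 0.70 in normoxia), and as near-identical copies their separate values are uncertain. Lgmn, the legumain that cuts cathepsin precursors, averaged 46.8 ± 15.5 CPM in KO and 76.3 ± 17.6 CPM in WT hypoxia cultures (log2 fold change -0.71 ± 0.24 SE, adjusted p = 0.0455).

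Assembly factors, sorting genes and the MiT/TFE factors completed the lists. Of 12 tested genes of pump assembly and control, 1 was lower and 3 higher in KO hypoxia cultures, 1 and 1 of 11 in normoxia and 0 and 2 of 12 in tumor. Rogdi, a partner in reassembling V1 with V0, was higher in tumor, hypoxia and normoxia (0.58, 0.70 and 0.51, adjusted p = 0.0138, 9.23e-05 and 0.0173 in edgeR). Of 15 sorting genes, 7 were lower and 1 higher in hypoxia, 1 and 1 in normoxia and 0 and 1 in tumor. M6pr, the cation-dependent mannose 6-phosphate receptor, fell in KO hypoxia (log2 fold change -0.43 ± 0.06 SE, adjusted p = 0.000288) and normoxia (log2 fold change -0.48 ± 0.08 SE, adjusted p = 0.00521), and Sorl1, a sorting receptor, rose in tumor, hypoxia and normoxia (0.33, 0.58 and 0.61). Of the MiT/TFE factors, Mitf and Tfec were lower in KO hypoxia (log2 fold change -0.49 ± 0.12 SE, adjusted p = 0.00895; log2 fold change -0.52 ± 0.08 SE, adjusted p = 0.000464). Tfeb and Tfe3 averaged 50 ± 3.85 and 98.6 ± 7.62 CPM in KO and 47.9 ± 3.92 and 98.9 ± 5.85 CPM in WT hypoxia cultures and were not called in tumor, hypoxia or normoxia (edgeR adjusted p of at least 0.253). The list of these factors and their control had 4 of 20 lower and 3 higher in hypoxia, 0 and 0 in normoxia and 1 and 0 in tumor. Between KO hypoxia and KO normoxia cultures 14 of 40 hydrolase genes were higher and 14 lower, and between the WT cultures 16 and 10. For the membrane genes these counts were 6 and 7 in KO and 8 and 2 in WT, and for the inhibitors 5 and 1 in KO and 4 and 0 in WT. Of 15 sorting genes 2 were higher and 8 lower in KO and 2 and 6 in WT. Assembly genes had 4 higher and 4 lower in KO and 4 and 3 in WT, and the 21 MiT/TFE genes 1 and 9 in KO and 2 and 6 in WT.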

How the data were processed

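RNA was measured in 22 libraries of 3 experiments. The authors deposited raw counts per gene for each, made with Subread and featureCounts on GRCm38.p6 per the submitters' processing notes, with no versions. In both culture tables a code stands in place of KO, and those columns were read as KO because the others are named WT. The strand setting is not given in the sources used here. Deposited normalized tables were not used here. Each experiment was fitted in R 4.3.3 with edgeR 4.0.16 (filterByExpr, TMM, robust quasi-likelihood test, Benjamini-Hochberg adjustment over all genes, threshold 0.05). Oxygen comparisons used the 16 culture libraries over genes listed in both tables. The fits were tested on simulated data. SE is the log2 fold change divided by the root of F. CPM is each count scaled by the TMM-adjusted library size, per kb of GENCODE M21 exons where stated. The level of Vsir was tested as log2(CPM + 1). DESeq2 1.42.0, other scalings, no filter, a replicate block, a fold of 1.2 and leaving out libraries were alternatives. Replicate numbers were not taken as pairs across genotypes, since no label gives them that meaning. In tumor, where 6 of 6 libraries correlated best with their own number, whether they are pairs is not settled. Members, gene lists and named genes were chosen with earlier results of these data known. All members are accounted for, with full values for called members and a set of well-known ones, and from each list up to 4 called genes with the smallest p plus Tcirg1, Vsir, Tfeb, Tfe3, Mitf, Cst3, Cstb and Lgmn. Dcstamp, Ocstamp and Acp5 in hypoxia were named as marker genes.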

Additional observations from a re-analysis of the deposited data

Results flagged for a closer look

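In 114 groups of 4 libraries, the level of a member was checked for a library far from the other 3. In 8 of them the gap to the nearest library, over the whole range of the group, exceeded Dixon's critical value for 4 samples, and chance flags about 1 in 20 groups. Hypoxia WT replicate 2 was the highest of its group for Ctsa (651 CPM), Ctsf (1.12 CPM) and Atp6ap1 (285 CPM). Normoxia WT replicate 3 was the highest of its group for Ctsk (1.53 CPM) and Atp6ap1 (257 CPM). Normoxia KO replicate 4 was the highest of its group for Atp6v1b2 (336 CPM), hypoxia KO replicate 4 for Atp6ap2 (119 CPM), and hypoxia KO replicate 3 for Atp6v0d2 (13.8 CPM).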

How the results depend on the processing

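Among 3320 values of single members under alternatives, 0 called values reversed and 116 uncalled ones changed sign. In normoxia (1 cathepsin and 2 pump genes called), cathepsin calls were 3 with DESeq2, 4 with library size alone, 2 with no filter, 3 with the replicate block, 0 with a fold of 1.2 and 2 without the pair of libraries farthest from their group means; pump calls were 1 with a fold of 1.2. In hypoxia (5 and 9), cathepsin calls were 8 with no filter and pump calls 2 with a fold of 1.2. In tumor (0 and 1), cathepsin calls were 3 with DESeq2, 3 with no filter, 4 with the replicate block and 3 without the farthest pair, and pump calls 3 with no filter, 3 with the replicate block, 3 without the farthest pair and 0 with a fold of 1.2. Leaving out the farthest pair was chosen after seeing the data. For the difference of KO effects DESeq2 called 1 cathepsin, and in the WT oxygen comparison (11 pump genes) a fold of 1.2 left 3. The cause of these changes was not tested. The shares of all genes called under the alternatives, or with libraries left out, are not given here, so these counts have no baseline.

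With 1 library left out, the calls ranged from 0 to 2 cathepsins and 1 to 3 pump genes in normoxia, 5 to 7 and 6 to 9 in hypoxia, 0 to 3 and 0 to 1 in tumor, 6 to 9 and 10 to 13 in the KO oxygen comparison, 8 to 8 and 10 to 12 in the WT one, and 0 to 0 and 0 to 0 for the difference of effects. The Vsir difference ranged from -2.0 to -1.91 in tumor, -1.95 to -1.77 in hypoxia and -2.19 to -1.93 in normoxia. Same-numbered KO and WT libraries did not deviate together throughout (correlations of -0.06 to 0.37 in normoxia, -0.16 to 0.02 in hypoxia and 0.08 to 0.22 in tumor), so the numbers were not taken as pairs. As a hint from the data and not the design, 6 of 6 tumor libraries correlated best with their own number in the other genotype, against 0 of 8 in hypoxia and 3 of 8 in normoxia. Tumor KO libraries were the shallowest, and members at a few CPM or less, such as Ctsk, Ctsw and Atp6v0d2 in tumor, are limited by counting.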
